A study of Mus musculus with 20 samples.

Results

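The aryl hydrocarbon receptor (AhR) pathway was followed through 6 genes, Ahr, Ahrr, Cyp1a1, Cyp1b1, Tiparp and Aldh3a1, which were chosen by their symbols from the 22090 genes of a mouse skin count table. All 6 were found in the table, and 18160 of its genes were detected somewhere in the series. RNA-seq had been made from back skin of female hairless SKH-1 mice, 7 months old when the experiment began, a strain that develops skin tumors under ultraviolet light. Of the 8 mice, 4 were left without ultraviolet light and 4 were irradiated with simulated sunlight holding UVA and UVB. The samples comprised 8 normal skin (NS), 8 actinic keratosis (AK) and 4 cutaneous squamous cell carcinoma (cSCC) tissues. Each unirradiated mouse gave 1 NS, and each irradiated mouse gave 1 NS and 3 lesions, so all 8 AK and all 4 cSCC came from the same 4 irradiated mice. In the study's pathology the AK lesions were graded as papillomas, the benign growths that precede carcinoma in this model. The NS group mixed irradiated and unirradiated mice, and the labels tell neither which NS was which nor which tissues shared a mouse. The labels mention no transgene, no drug and no AhR ligand.

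AhR is a transcription factor that waits in the cytoplasm bound to heat shock protein chaperones. When it binds a ligand, such as a dioxin, a polycyclic hydrocarbon, a tryptophan photoproduct made in ultraviolet-exposed skin or a product of skin microbes, it moves to the nucleus, pairs with ARNT and switches on genes whose promoters carry its response element. Cyp1a1, Cyp1b1, Tiparp and Ahrr are standard induced targets, and the products of Cyp1a1, Tiparp and Ahrr in turn limit the signal by clearing the ligand, by modifying the receptor or by competing for ARNT. In skin the receptor is expressed by keratinocytes, fibroblasts, Langerhans cells and lymphocytes, and it takes part in epidermal differentiation and barrier formation.

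Positions are those of GENCODE release M21 on GRCm38. Ahr, the receptor, lies on chr12:35497974-35535038 (minus strand) and Ahrr, its repressor, on chr13:74211118-74292331 (minus strand). Cyp1a1 lies on chr9:57687928-57703824 (plus strand) and Cyp1b1 on chr17:79701537-79715061 (minus strand). Tiparp lies on chr3:65528410-65555518 (plus strand) and Aldh3a1 on chr11:61207537-61218421 (plus strand). All 6 are protein-coding, and counts cover their exons as a whole. Ahr overlaps the opposite-strand noncoding gene Gm48236 and Tiparp the opposite-strand pseudogene 4931440P22Rik, neither of which was in the table. Because no strand setting was stated for the counting, reads from those 2 genes cannot be told apart from Ahr and Tiparp reads.

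Promoter sequences are shown for the response element bound by AhR and ARNT, whose core is GCGTG, which reads CACGC on the opposite strand. Cyp1a1, Cyp1b1, Tiparp and Ahrr are known to be induced through this element. RefSeq promoters on GRCm38.p6 were matched for 4 of the 6 genes, Ahrr, Cyp1a1, Cyp1b1 and Tiparp. Each line gives bases upstream of the RefSeq start, 5′ to 3′ on the strand of the gene, with every core in capitals. The windows are chr13:74292332-74292581 (minus strand) for Ahrr, chr9:57697363-57697612 (plus strand) for Cyp1a1, chr17:79715062-79715311 (minus strand) for Cyp1b1 and chr3:65528197-65528409 (plus strand) for Tiparp. The Tiparp line stops 37 bases short of the RefSeq start, where the annotated first exon begins, and the Cyp1a1 window lies inside the longer GENCODE gene model but in none of its exons.
Ahrr: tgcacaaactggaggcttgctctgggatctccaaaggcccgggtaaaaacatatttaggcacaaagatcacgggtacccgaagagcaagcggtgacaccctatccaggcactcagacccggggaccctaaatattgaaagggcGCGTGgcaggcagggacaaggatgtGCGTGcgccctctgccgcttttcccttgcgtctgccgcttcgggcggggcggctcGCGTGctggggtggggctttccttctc
Cyp1a1: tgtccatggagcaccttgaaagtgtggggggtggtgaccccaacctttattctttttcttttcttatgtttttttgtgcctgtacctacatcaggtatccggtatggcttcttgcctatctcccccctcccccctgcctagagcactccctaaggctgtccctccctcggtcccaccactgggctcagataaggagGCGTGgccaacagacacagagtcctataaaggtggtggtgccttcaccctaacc
Cyp1b1: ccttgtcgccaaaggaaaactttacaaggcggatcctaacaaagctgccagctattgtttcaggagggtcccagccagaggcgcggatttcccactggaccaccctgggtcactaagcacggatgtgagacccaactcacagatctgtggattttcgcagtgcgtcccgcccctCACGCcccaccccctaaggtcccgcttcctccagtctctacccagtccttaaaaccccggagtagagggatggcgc
Tiparp: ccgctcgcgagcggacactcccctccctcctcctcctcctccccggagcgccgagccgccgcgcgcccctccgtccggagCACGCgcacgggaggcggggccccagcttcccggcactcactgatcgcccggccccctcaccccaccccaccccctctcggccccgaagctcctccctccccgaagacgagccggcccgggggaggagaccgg
Ahrr held 3 cores, all on the forward strand, beginning 107, 82 and 27 bases before the start. Cyp1a1 held 1 forward core 54 bases before its start, Cyp1b1 held 1 reverse core at 76 bases, and Tiparp held 1 reverse core at 170 bases. The core is short and therefore common. Of 32851 RefSeq promoter windows of 250 bases, 28.2% held at least 1 core, 8.63% at least 2 and 2.77% at least 3 on either strand. A match marks letters in these windows and not a site shown to be bound.

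Total counts ranged from 1624325 to 6295575 in NS, from 867219 to 14055206 in AK and from 775750 to 7095102 in cSCC. Levels are given as CPM (a gene's counts relative to the library total, here scaled by TMM factors). A level of 3 counts, taken as the detection floor, corresponded to 0.225 to 3.78 CPM depending on the library, which covers counting error only. All 4 cSCC carried basal keratinocyte markers (summed level 3870 to 18500 CPM over 7 genes). The cSCC libraries nevertheless stood apart from each other. Haemoglobin genes took 46.8% of the counts in cSCC replicate 18, against 1.44% to 6.02% in the 3 other cSCC and 0.0917% to 14.3% in NS and AK. Lung markers, all 10 of them detected, summed to 36300 CPM in cSCC replicate 20 and to at most 61.8 CPM in every other sample. Heart markers, 9 of 10 detected, summed to 61300 CPM in cSCC replicate 21 and to at most 172 CPM in every other sample, which goes against the skin label of both tissues. The fold changes of the 6 genes in cSCC are therefore given with all 4 samples and again without replicates 20 and 21, the latter in a fit that leaves 2 cSCC.

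Called genes are those with an adjusted p under 0.05 from edgeR's quasi-likelihood test (Benjamini-Hochberg over all genes tested) and a fold change above 1.5 or below 0.67. Of the 6 genes, Ahr and Aldh3a1 were called lower and Tiparp higher in cSCC than in NS, and Ahr lower in cSCC than in AK, whereas none was called between AK and NS. For AK vs. NS 0 of 5 tested were called, where 4.64% of 11677 genes were called, 2.26% higher and 2.38% lower. In cSCC vs. NS 1 was called higher and 2 lower of 6 tested, where 19.3% of 12097 genes were called, 11.7% higher and 7.65% lower. In cSCC vs. AK 0 were called higher and 1 lower of 5 tested, where 24.4% of 12032 genes were called, 16% higher and 8.34% lower. The median log2 fold change over the genes tested was 0.26, -0.43 and -0.43 in these comparisons, which share samples with each other. So few genes set no pathway-wide direction, and the members went different ways.

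The receptor was lower in cSCC. Ahr ranged from 46.6 to 109 CPM in NS (median 91.5) and from 70.2 to 146 CPM in AK (median 104), and it was 55.6, 33.0, 21.6 and 4.80 CPM in cSCC replicates 18 to 21. Every cSCC lay below every AK, whereas cSCC replicate 18 lay above the lowest NS. Scaled by library size alone, where haemoglobin reads enlarge the total, Ahr in that replicate was 28.3 CPM, against 46.1 CPM in the lowest NS. Group means were 84.9 ± 22.2 CPM in the 8 NS, 103 ± 22.7 CPM in the 8 AK and 28.7 ± 21.3 CPM in the 4 cSCC (SD). By edgeR's test, Ahr was 2.90-fold lower in cSCC than in NS (log2 fold change -1.53, SE 0.47, adjusted p = 0.036) and 3.42-fold lower than in AK (-1.78, SE 0.45, adjusted p = 0.0124). An exact two-sided permutation test of log2(CPM + 1) gave p = 0.00404 against NS and p = 0.00202 against AK, the second being the smallest p that the 495 splits of 4 and 8 samples allow. AK and NS were not separated (0.26, SE 0.18, adjusted p = 0.393 by edgeR). By mean level the order was AK, NS, cSCC, and the first neighbours did not differ beyond their spread.

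The 2 calls of Ahr differed in how they held. Without cSCC replicates 20 and 21 the log2 fold change against AK was -1.16 (adjusted p = 0.0232 by edgeR), still called. Against NS it was -0.92 (adjusted p = 0.105), not called, and this comparison also lost its call when any of NS replicates 1, 4, 5, 6 or 9 or cSCC replicates 19 or 20 was left out (lowest and highest values over all 12 such fits -2.11 and -1.16, adjusted p up to 0.0762). Markers of suprabasal keratinocytes, the differentiating cells of the epidermis, were low in cSCC replicates 19 to 21, where Ahr was low too. All 8 of them were detected in each cSCC. They summed to 12500 to 37900 CPM in NS, to 8620 to 28400 CPM in AK and to 11400, 1240, 1880 and 852 CPM in cSCC replicates 18 to 21. Between NS and AK the 2 did not move together. The median marker sum was 26000 CPM in NS and 14800 CPM in AK, and the median of Ahr was 91.5 and 104 CPM. In cSCC replicate 18 that sum lay within the AK range while Ahr, at 55.6 CPM, lay below the lowest AK at 70.2 CPM. T cell markers (7 genes) were also low, at 42.4, 15.8, 60.3 and 17.2 CPM in cSCC replicates 18 to 21, below every NS (62.8 to 223 CPM) and overlapping AK (36 to 193 CPM). In bulk tissue, fewer cells of a type and less RNA per cell cannot be told apart, and the part of the suprabasal and T cell markers in the Ahr result was not tested.

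**Figure D1:**
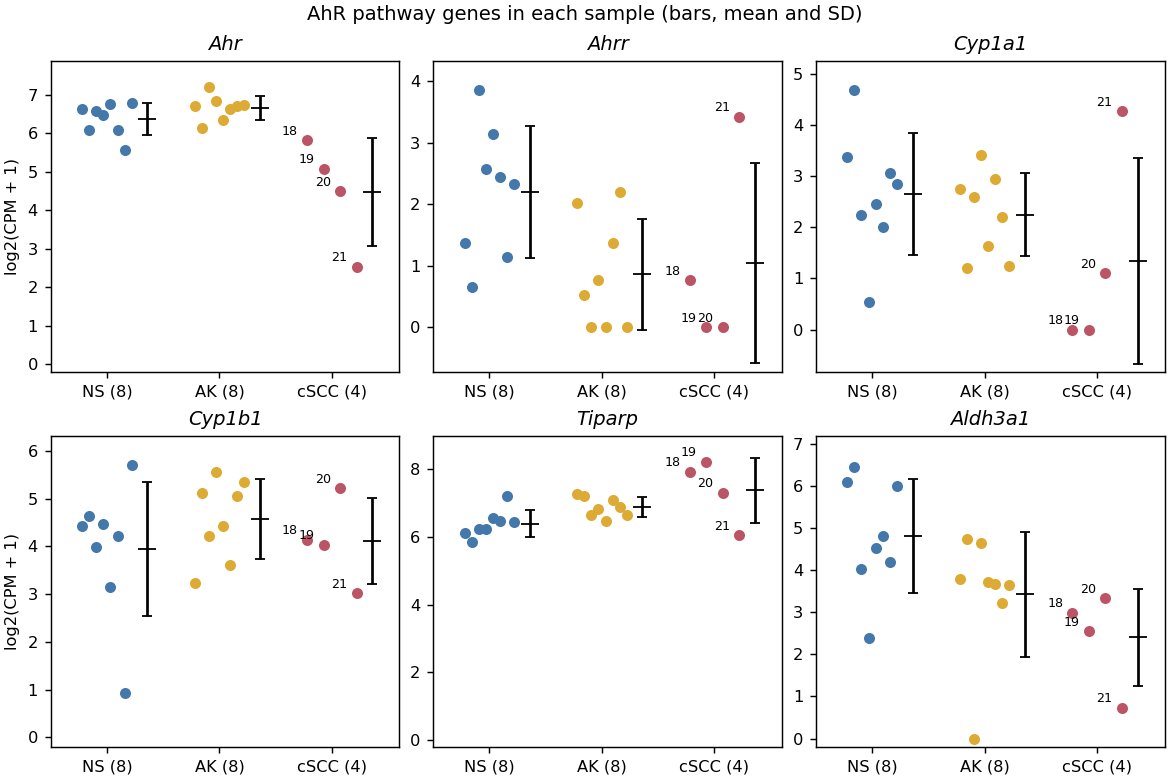
Level of each of the 6 genes as log2(CPM + 1) in every sample of NS (8), AK (8) and cSCC (4, labelled with the replicate number); the bar beside each group is the mean with its SD. Ahr sits lower in all 4 cSCC than in any AK, Tiparp is highest in cSCC replicates 18 and 19 (242 and 297 CPM), and Ahrr and Cyp1a1 are high in cSCC replicate 21 alone among the cSCC.

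Ahrr, the repressor that competes with AhR for ARNT, was scarce everywhere. It ranged from 0.579 to 13.6 CPM in NS (median 4.25, from 2 to 40 counts) and from 0 to 3.6 CPM in AK (median 0.567), with 3 AK at 0 counts. In cSCC it had 1, 0, 0 and 59 counts in replicates 18 to 21, or 0.695, 0, 0 and 9.76 CPM. Nearly all of the cSCC signal thus came from the library with heart markers. The filter on low counts left Ahrr out of the AK vs. NS and cSCC vs. AK fits, so these were tested by exact two-sided permutation of log2(CPM + 1). AK was lower than NS by a difference of -1.33 (unadjusted p = 0.0191, exact permutation, mean 1.17 ± 1.44 against 4.79 ± 4.28 CPM, SD, n = 8 each), and the groups overlapped. With the filter removed, edgeR gave a log2 fold change of -1.93 (adjusted p = 0.151), so over all genes Ahrr did not pass. No difference was detected for cSCC vs. NS (-0.52, SE 0.99, adjusted p = 0.754 by edgeR) or cSCC vs. AK (0.19, exact permutation p = 0.814). The cSCC vs. NS value moved to -4.16 without replicate 21 (adjusted p = 0.0631) and to -3.87 without replicates 20 and 21 (adjusted p = 0.127), not called in either fit. Against AK it was -1.92 without replicates 20 and 21 (adjusted p = 0.566).

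Cyp1a1, the monooxygenase that clears AhR ligands and the usual readout of the receptor, was low in NS and AK and split the cSCC. It ranged from 0.450 to 24.6 CPM in NS (median 5.34) and from 1.30 to 9.58 CPM in AK (median 4.32), with at least 2 counts in each of these 16 samples. In cSCC replicates 18 to 21 it had 0, 0, 1 and 110 counts, or 0, 0, 1.14 and 18.2 CPM. The detection floors in the first 3 of these libraries were 2.08, 1.32 and 3.41 CPM. With all 4 cSCC no difference was detected (log2 fold change -0.35, SE 1.04, adjusted p = 0.850 against NS, and 0.50, SE 0.94, adjusted p = 0.731 against AK, both by edgeR). AK and NS were not separated either (-0.75, SE 0.57, adjusted p = 0.428).

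Leaving out cSCC replicate 21 turned Cyp1a1 into a called gene in both comparisons (-4.73, adjusted p = 0.0469 against NS, and -4.04, adjusted p = 0.0454 against AK, by edgeR). Without replicates 20 and 21 it was called against AK (-7.25, adjusted p = 0.0356) and not against NS (-7.75, adjusted p = 0.0529). These fitted values depend on the prior count, since the 3 libraries left without replicate 21 held 1 count together and the 2 left without both held 0. Taken as pooled counts, that 1 count against 231 in NS made Cyp1a1 32.6-fold lower (exact 95% counting interval 5.79 to 1290), and against 188 in AK 22.3-fold lower (3.96 to 887). In the same 3 libraries Ahrr had 1 count, against 138 in NS (19.5-fold lower, 3.44 to 775) and against 62 in AK (7.37-fold lower, 1.27 to 296). The intervals cover counting error within these libraries and not the spread between tissues. Cyp1a2, the sister gene of Cyp1a1 best known from liver, had a level above 0 in 1 NS (0.319 CPM) and in cSCC replicate 21 (0.165 CPM) and was at 0 in the 18 other samples.

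In cSCC replicate 21, where Cyp1a1 and Ahrr were highest among the cSCC, heart markers summed to 61300 CPM and endothelial markers (12 genes) to 1070 CPM, against 49.3 to 143 CPM in NS and 154 to 329 CPM in the 3 other cSCC. Ahr itself was lowest in that library, at 4.80 CPM. Cyp1a1 also reached 24.6 CPM in NS replicate 2, in which heart markers did not pass the NS maximum of 46.3 CPM. Sebaceous gland markers (8 genes) were highest in that sample, at 3120 CPM, and next in NS replicate 1, at 1970 CPM, where Cyp1a1 was 9.33 CPM. Their range was 421 to 3120 CPM in NS and 497 to 1320 CPM in AK. In cSCC replicates 18 to 21 they were 104, 94, 1290 and 425 CPM, with Cyp1a1 at 0, 0, 1.14 and 18.2 CPM. The part of sebaceous, heart and endothelial RNA in the Cyp1a1 and Ahrr values was not tested.

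**Figure D2:**
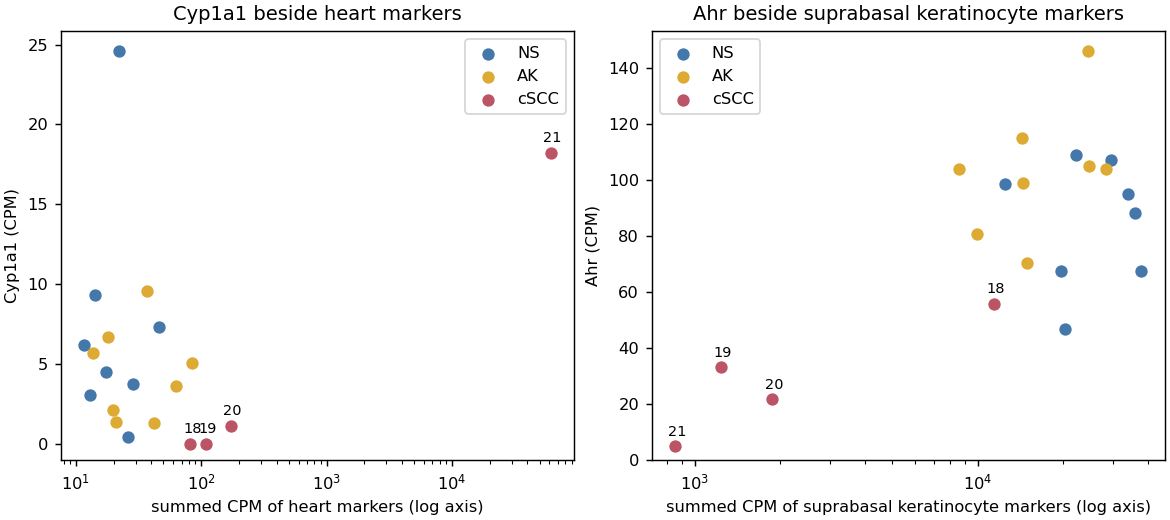
Left, Cyp1a1 (CPM) against the summed CPM of 10 heart markers on a log axis; right, Ahr (CPM) against the summed CPM of 8 suprabasal keratinocyte markers on a log axis, 1 point per sample, coloured by group, with cSCC replicates numbered. cSCC replicate 21 stands alone at 61300 CPM of heart markers with 18.2 CPM of Cyp1a1, and cSCC replicates 19, 20 and 21 lie below every NS and AK on both axes of the right panel.

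Cyp1b1, which oxidises polycyclic hydrocarbons and estrogens and is expressed in stromal cells, showed no difference between groups. It ranged from 0.913 to 51.5 CPM in NS (median 19.1) and from 8.38 to 46.3 CPM in AK (median 26.4), and it was 16.7, 15.4, 36.4 and 7.11 CPM in cSCC replicates 18 to 21. The groups overlapped throughout, and unlike Cyp1a1 it was detected in all 20 samples. Log2 fold changes by edgeR were 0.38 (SE 0.47, adjusted p = 0.652) for AK vs. NS, -0.06 (SE 0.67, adjusted p = 0.963) for cSCC vs. NS and -0.43 (SE 0.51, adjusted p = 0.573) for cSCC vs. AK. Without cSCC replicates 20 and 21 the last 2 were -0.29 (adjusted p = 0.844) and -0.65 (adjusted p = 0.499). The spread within NS alone was wide, and a change of the size of these standard errors could not have been seen.

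Tiparp, a mono-ADP-ribosyltransferase that is induced by AhR and modifies it as negative feedback, was higher in cSCC than in NS. It ranged from 57.1 to 146 CPM in NS (median 80.2) and from 86.5 to 154 CPM in AK (median 115), and it was 242, 297, 157 and 64.8 CPM in cSCC replicates 18 to 21. The first 3 cSCC exceeded every NS and every AK, while replicate 21 lay below every AK. The difference from NS was 2.29-fold (log2 fold change 1.20, SE 0.34, adjusted p = 0.0242 by edgeR, exact permutation p = 0.0263). Against AK it was 0.78 (SE 0.30, adjusted p = 0.0724), not called. AK vs. NS gave 0.46 (SE 0.17, adjusted p = 0.113), not called except without NS replicate 8 (0.61, adjusted p = 0.0198). By mean level the order was cSCC, AK, NS, in which neither pair of neighbours passed the test.

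Endothelial markers (12 genes) were higher in every cSCC than in any NS or AK, at 154 to 1070 CPM against at most 143 CPM. Neutrophil markers (6 genes) were 2190 to 15100 CPM in cSCC, 83.1 to 5780 CPM in NS (median 585) and 632 to 3080 CPM in AK. Both sums were thus high in the group where Tiparp was high, although replicate 21, with the most endothelial signal, had the least Tiparp. Basal keratinocyte markers (7 genes) were 17900, 18500, 5410 and 3870 CPM in cSCC replicates 18 to 21, where Tiparp was 242, 297, 157 and 64.8 CPM. They were 5310 to 16300 CPM in NS and 9320 to 14400 CPM in AK. The part of endothelial, neutrophil and basal keratinocyte RNA in the Tiparp result was not tested.

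Scaling mattered for Tiparp in cSCC replicate 18, because its haemoglobin reads enlarge the total. Scaled by library size alone its level was 123 CPM in place of 242 CPM, and the cSCC vs. NS change became 0.93 (adjusted p = 0.0933 by edgeR). With haemoglobin genes removed and library size alone, a choice made after seeing the data, it was 1.15 (adjusted p = 0.0362). Without cSCC replicate 19 the call was lost (0.90, adjusted p = 0.1). Without replicates 20 and 21 the change was larger, at 1.68 against NS (adjusted p = 0.00476) and 1.25 against AK (adjusted p = 0.0046), so that the second comparison was then called as well. Leaving out replicate 21 alone was enough for that call (0.98, adjusted p = 0.0102).

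Aldh3a1, an aldehyde dehydrogenase that is an AhR target and protects epithelia from products of ultraviolet-induced lipid oxidation, was lower in cSCC. It ranged from 4.27 to 86.6 CPM in NS (median 24.5) and from 0 to 25.6 CPM in AK (median 11.9), and it was 6.95, 4.83, 9.10 and 0.662 CPM in cSCC replicates 18 to 21. The 0 came from AK replicate 12, where the floor was 3.78 CPM. All 4 cSCC lay below the NS median, and 3 of them lay above the lowest NS. The change from NS was 7.55-fold (-2.92, SE 0.85, adjusted p = 0.0275 by edgeR, exact permutation p = 0.0162). AK lay between, at -1.48 against NS (SE 0.51, adjusted p = 0.0866), and cSCC vs. AK gave -1.36 (SE 0.75, adjusted p = 0.196), or -1.17 without replicates 20 and 21 (adjusted p = 0.352). DESeq2 called AK vs. NS (-1.53, adjusted p = 0.0307), which edgeR did not.

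The Aldh3a1 call in cSCC rested on few reads, from 4 to 11 counts per cSCC. It was lost with limma voom (-2.30, adjusted p = 0.375), without cSCC replicate 19 (-2.93, adjusted p = 0.0633), without cSCC replicate 21 (-2.45, adjusted p = 0.0613) and without both replicates 20 and 21 (-2.68, adjusted p = 0.101), with the direction kept in each. Suprabasal markers were low as well in cSCC replicates 19 to 21, at 852 to 1880 CPM, but at 11400 CPM in replicate 18, where Aldh3a1 was 6.95 CPM. The NS with the most Aldh3a1, replicate 2 at 86.6 CPM, had 19800 CPM of these markers. The NS with the least, replicate 5 at 4.27 CPM, had 36100 CPM of them. Sebaceous gland markers (8 genes) were 3120 CPM in NS replicate 2 and 421 CPM in NS replicate 5, the highest and lowest NS. The AK with the most Aldh3a1, replicate 11 at 25.6 CPM, had 749 CPM, within the AK range of 497 to 1320 CPM. In cSCC replicates 18 to 21 they were 104, 94, 1290 and 425 CPM. The part of suprabasal and sebaceous cells in the Aldh3a1 result was not tested. Among the other 4 Aldh3 genes, Aldh3b2 and Aldh3b3 were called lower in cSCC than in NS (-1.13, adjusted p = 0.0188, and -1.75, adjusted p = 0.0184). Of all genes tested, 7.65% were called lower in that comparison. Aldh3a2 (-0.30, adjusted p = 0.702) and Aldh3b1 (1.01, adjusted p = 0.297) were not called. Neither Aldh3b2 nor Aldh3b3 was called without replicates 20 and 21 (adjusted p = 0.114 and 0.12).

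**Figure D3:**
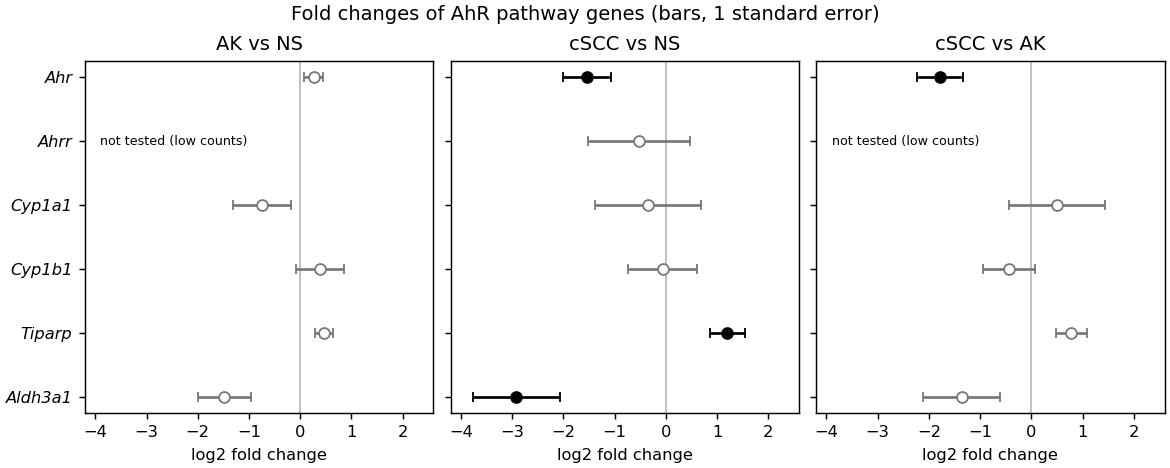
Log2 fold change of each gene in the 3 comparisons, with bars of 1 standard error; filled points were called (adjusted p under 0.05 and fold change above 1.5 or below 0.67), open points were not. Called changes were Ahr in cSCC vs. NS (-1.53) and cSCC vs. AK (-1.78), and Tiparp (1.20) and Aldh3a1 (-2.92) in cSCC vs. NS.

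Compared per length of exons, Tiparp and Ahr were the most abundant members in NS together with Aldh3a1. In CPM per kilobase the NS means were 19.7 for Tiparp, 19.5 for Aldh3a1, 13.8 for Ahr, 3.39 for Cyp1b1, 2.65 for Cyp1a1 and 0.507 for Ahrr. In cSCC the means were 43.6 for Tiparp, 4.66 for Ahr, 3.24 for Cyp1b1, 2.77 for Aldh3a1, 1.73 for Cyp1a1 and 0.277 for Ahrr. Tiparp thus stood first in both.

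Relative to Ahr, Tiparp was higher in every cSCC library than in any NS or AK library. The ratio of Tiparp to Ahr counts in a library needs no normalization, and it was chosen after the values were seen, so it is a description. It was 0.694 to 3.13 in NS (median 0.843) and 0.681 to 2.07 in AK (median 1.1). In cSCC replicates 18 to 21 it was 4.35, 9.0, 7.26 and 13.5. All 4 cSCC were above all 16 other samples, including cSCC replicate 18, where haemoglobin took 46.8% of the counts, and replicates 20 and 21 with the lung and heart markers. NS replicate 8, at 3.13, was the nearest. The cSCC ratios rested on 80, 75, 19 and 29 Ahr counts in replicates 18 to 21. In replicate 21 both genes were low, with Tiparp at 64.8 CPM, below every AK, and Ahr at 4.80 CPM.

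**Figure D4:**
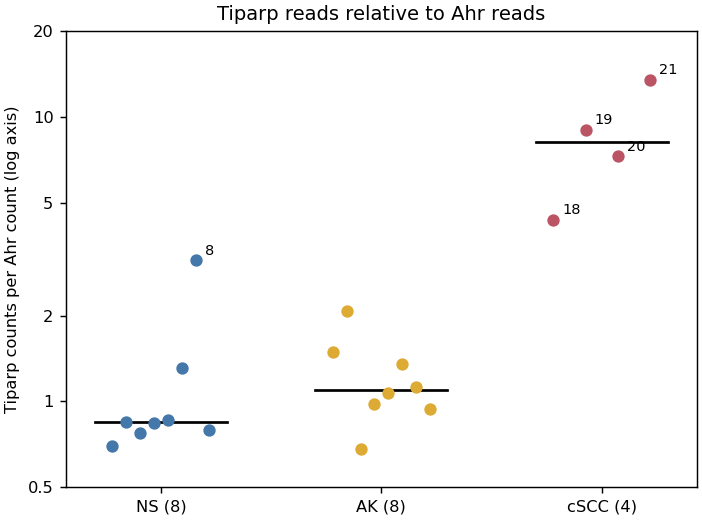
Tiparp counts per Ahr count in each sample on a log axis, with a line at the median of each group; cSCC replicates and NS replicate 8 are numbered. The 4 cSCC samples lie between 4.35 and 13.5, above the NS (0.694 to 3.13) and the AK (0.681 to 2.07).

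A wider set of 52 pathway genes in 5 lists was described beside the 6. For AK vs. NS 1 of 39 tested was called, for cSCC vs. NS 6 were called higher and 3 lower of 41, and for cSCC vs. AK 7 higher and 3 lower of 43. Over all genes tested the called shares were 4.64% in AK vs. NS, 19.3% in cSCC vs. NS (11.7% higher, 7.65% lower) and 24.4% in cSCC vs. AK (16% higher, 8.34% lower), so with all samples the listed genes were called in cSCC about as often as genes at large. The median log2 fold change over the tested genes was 0.11, 0.14 and 0.02, against -0.04, 0.14 and 0.17 for all genes tested. Without cSCC replicates 20 and 21 the counts were 6 higher and 2 lower in both cSCC comparisons, of 45 tested against NS and 43 against AK, where 12.2% and 12.6% of all genes tested were called.

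Of the 12 chaperones, partners and coregulators of AhR that were tested, 2 were called higher and 1 lower in each cSCC comparison, where 19.3% (vs. NS) and 24.4% (vs. AK) of all genes were called. Arnt, its dimerization partner, had means of 29.5 ± 7.96 CPM over 8 NS, 33.3 ± 7.44 CPM over 8 AK and 34.4 ± 15.7 CPM over 4 cSCC (SD), and no difference was called (log2 fold change 0.15 in AK and 0.30 in cSCC relative to NS, 0.21 in cSCC relative to AK, adjusted p = 0.644, 0.548 and 0.668 by edgeR). Stub1, the ubiquitin ligase that marks chaperone clients for degradation, was 22.9 to 93.9 CPM in cSCC and at most 21.3 CPM in NS and 15.3 CPM in AK (2.19, adjusted p = 0.00407, and 2.41, adjusted p = 0.00245). Without replicates 20 and 21 it was still called, only just against NS (1.52, adjusted p = 0.0494, and 1.7, adjusted p = 0.0217 against AK). The coactivators Ncoa3 and Ncoa2 were lower, Ncoa3 against NS (-1.04, adjusted p = 0.0109) and Ncoa2 against AK (-0.80, adjusted p = 0.0305). Both calls held without replicates 20 and 21 (-1.04, adjusted p = 0.0291, and -1.26, adjusted p = 0.00842). The Ncoa2 call was lost without AK replicate 11, 13 or 17 or cSCC replicate 19. In cSCC vs. NS 9 of the 12 tested genes of the list were not called, Arnt and Ncoa2 (-0.83, adjusted p = 0.067) among them.

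Among 13 other AhR-inducible genes, 11 were tested in each cSCC comparison, and in each 3 were called higher and 0 lower. Of all genes tested, 11.7% (vs. NS) and 16% (vs. AK) were called higher, and 7.65% and 8.34% lower. Changes of the genes not called went both ways. The median log2 fold change of the list was 0.29 (vs. NS) and 0.18 (vs. AK), against 0.14 and 0.17 for all genes tested. Nqo1, a quinone reductase, was 21.2 ± 8.0 CPM in NS, 29.0 ± 6.09 in AK and 75.6 ± 42.1 in cSCC (1.90, adjusted p = 0.00443 against NS, and 1.53, adjusted p = 0.00524 against AK). Gsta1, a glutathione transferase, was 22.8 to 74.7 CPM in cSCC and at most 14.2 CPM in NS and 19.2 CPM in AK (2.37, adjusted p = 0.00138, and 2.43, adjusted p = 0.00219). Both kept their call without replicates 20 and 21. Nfe2l2, which encodes the oxidative stress factor NRF2 and is itself an AhR target, was higher than in NS (1.11, adjusted p = 0.0241), but not without cSCC replicate 19 (0.59, adjusted p = 0.145); without replicates 20 and 21 it was 1.60 (adjusted p = 0.00504). Gsta2 was called against AK (1.37, adjusted p = 0.0489), and of 12 fits that left out 1 sample, 10 lost that call, the exceptions being those without AK replicate 17 or cSCC replicate 21. It was not called without replicates 20 and 21 either (1.45, adjusted p = 0.105). Nqo1 and the Gsta genes are textbook targets of NRF2 as well as of AhR, and Gsta1 and Gsta2 are so alike that reads could be split between them.

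Of 11 tryptophan catabolism genes, whose products include AhR ligands such as kynurenine, 2 were tested in AK vs. NS, 3 in cSCC vs. NS and 5 in cSCC vs. AK, and 0 were called. Of all genes tested, 4.64%, 19.3% and 24.4% were called in these comparisons. With so few tested, the absence of calls says little about this list. Of the 11 other mono-ADP-ribosyltransferase genes related to Tiparp, Parp9, an interferon-induced gene, was higher in AK than in NS (1.34, SE 0.32, adjusted p = 0.0282) and lower in cSCC than in AK (-1.15, adjusted p = 0.0061). Parp9 was 94.7 to 150 CPM in AK, 20.2 to 103 CPM in NS and 32.9 to 75.0 CPM in cSCC, and its AK vs. NS call was lost without NS replicate 2, 4 or 5 or AK replicate 13. Its cSCC vs. AK value was -1.07 without replicates 20 and 21 (adjusted p = 0.0231). Parp3, a DNA repair enzyme, was called higher in cSCC (2.37 against NS and 2.73 against AK), which rested on cSCC replicate 21, since without it the values were 1.13 (adjusted p = 0.143) and 1.34 (adjusted p = 0.137), and without replicate 20 as well 0.79 (adjusted p = 0.377) and 1.09 (adjusted p = 0.303). Parp8 was lower in cSCC than in AK (-1.32, adjusted p = 0.0161), though not called without replicates 20 and 21 (-1.19, adjusted p = 0.0968). Aldh3b1, of the Aldh3 list, was higher in cSCC than in AK (1.90, adjusted p = 0.0368), a call lost in 8 of 12 fits that left out 1 sample (AK replicates 10, 11, 12, 14, 15 and 17, and cSCC replicates 19 and 21) and without replicates 20 and 21 (2.14, adjusted p = 0.0703).

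**Figure D5:**
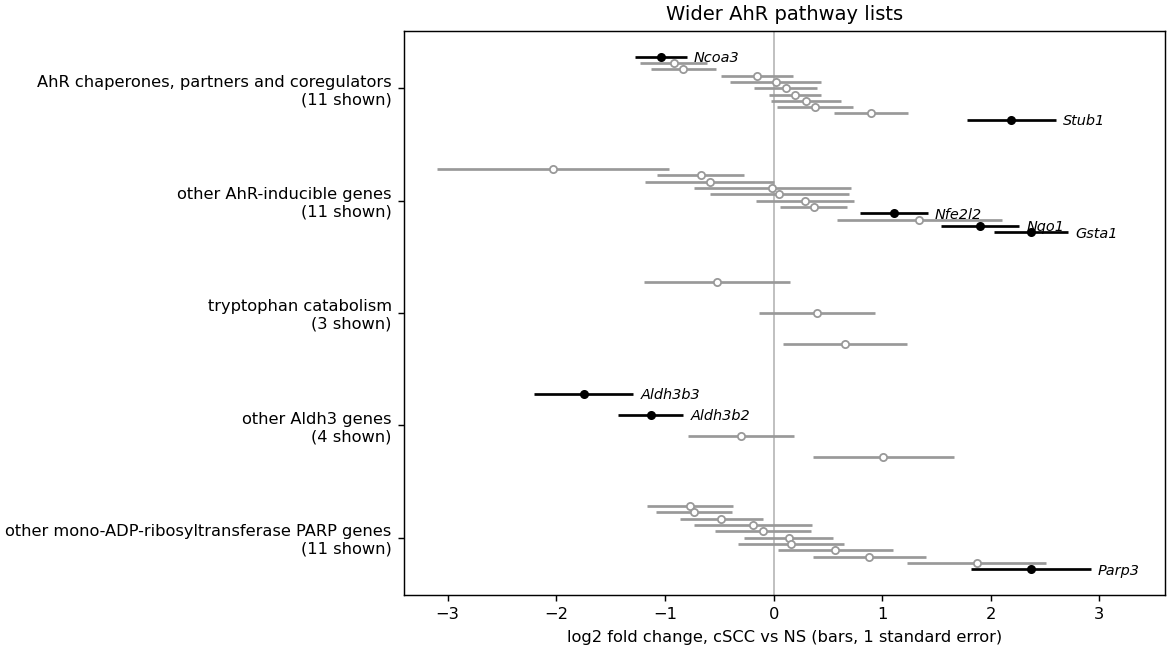
Log2 fold change, cSCC vs. NS, of tested genes of the 5 wider lists, with bars of 1 standard error; filled, named points were called and open points were not. Called genes lie on both sides of 0 in the first list (Ncoa3 at -1.04, Stub1 at 2.19), and Nfe2l2, Nqo1 and Gsta1 lie above 1 in the second.

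Whether the 6 genes varied together within groups was examined over the 16 NS and AK samples after subtracting each group mean of log2(CPM + 1). None of the 15 pairs passed a permutation test within groups after Benjamini-Hochberg adjustment. Cyp1b1 and Tiparp had the largest coefficient (r = -0.65, permutation p = 0.0224, adjusted p = 0.336, and rho = -0.44, permutation p = 0.0988, adjusted p = 0.578), which fell to -0.14 once the 2 most extreme samples in Cyp1b1 were set aside. Cyp1a1 and Aldh3a1 reached r = 0.87 within NS (rho = 0.76, exact permutation p = 0.00657, adjusted p = 0.197 over 30 such tests, and r = 0.55 without the 2 farthest samples) but -0.14 within AK. Receptor and targets were thus not seen to covary at this depth.

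By the same residuals over the 16 samples, the genes most like each member among 11677 were picked by Pearson's r, as a description. They included Kdm6a (0.89), Bmpr2 (0.86) and AW549877 (0.86) for Ahr, and Sft2d3 (0.84) and Sgpl1 (0.77) for Ahrr. For Cyp1a1 they were Agpat2 (0.85), Hist1h1b (0.84) and Fa2h (0.81), and for Cyp1b1 Ppm1k (0.90) and Cdc14a (0.85). For Tiparp they were Tmed10 (0.88), Psmd1 (0.86) and Psmc5 (0.86), the last of which are proteasome subunits. For Aldh3a1 they were Pdxk (0.94), Smarca2 (0.90) and Tmem176a (0.90).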

How the data were processed

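Counts from 20 mouse tissues labelled NS (8), AK (8) or cSCC (4) were used, and groups came from the sample labels. The authors deposited raw counts per gene symbol, not normalized. The submitters' processing notes name Trimmomatic 0.36, HISAT2 2.0.5 and featureCounts 1.5.2 with mm9 and hg19, whereas the study's methods give StringTie and GRCm38, so the counter and the build behind the counts are uncertain. The labels name a HiSeq and daily irradiation, the methods a NextSeq and irradiation on some days of the week. No library batch was given. Over 62 pairs of samples within a group, the smallest chi-square of counts per degree of freedom was 11.3, so no pair was the same library.

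Pairs of groups were compared in edgeR 4.0.16 (R 4.3.3, quasi-likelihood test, TMM, filterByExpr, Benjamini-Hochberg over all genes tested), using only the samples compared. Calls needed an adjusted p under 0.05 together with a fold change past 1.5 or 0.67. Levels are CPM with TMM factors over the 20 samples, and log2 levels have a pseudocount of 1. Genes that the filter left out were compared by exact two-sided permutation, and correlations by 100000 permutations within groups (Python 3.11.15, scipy 1.17.1). Tissues were treated as independent although lesions share mice, which could make p-values too small. Alternatives were DESeq2 1.42.0, limma 3.58.1 voom with sample quality weights, other scalings and filters, all 20 samples in 1 fit, a pseudocount of 0.1 and leaving out samples. The fits were tested on simulated data. Named genes were the 6 members, called genes of the 5 lists (at most 10 per list and comparison), Arnt, Cyp1a2, Nqo1 and the 3 genes most like each member. The members, lists and tests were chosen with earlier results of these data known. Kyat1, Kyat3, Adgre1 and Aldh3b3 were matched through older symbols. The marker lists named here are heart, lung, endothelial, neutrophil, T cell, basal and suprabasal keratinocyte, sebaceous gland and haemoglobin genes. Some items that this rule names are withheld and are not reported here.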

Additional observations from a re-analysis of the deposited data

Results flagged for a closer look

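Of 65 groups of 4 to 8 samples tested over 22 genes with Dixon's criterion for a sample far from the others, 11 held such a sample, 5 of them in the 6 members. By chance the criterion flags about 1 in 20 groups of normally distributed values, a rate that need not hold for CPM of low counts. Ahrr was 9.76 CPM in cSCC replicate 21, next to 0.695 in the nearest cSCC. Cyp1a1 was 18.2 CPM in the same library, next to 1.14. In NS, Cyp1a1 was 24.6 CPM in replicate 2 (nearest 9.33), Cyp1b1 was 51.5 CPM in replicate 9 (nearest 23.8) and Tiparp was 146 CPM in replicate 8 (nearest 92.4). Cyp1a2 was 0.319 CPM in NS replicate 7 and 0.165 CPM in cSCC replicate 21, the others of both groups being at 0. Any level above 0 is flagged in such a group, and both levels lay under the floors of these libraries, 0.478 and 0.496 CPM. Among the wider lists, Ncoa3 was 57.3 CPM in AK replicate 10 (nearest 42.7), Gsta1 was 19.2 CPM in AK replicate 17 (nearest 11.7), Aldh3b1 was 14.5 CPM in NS replicate 2 (nearest 5.74) and Parp8 was 16 CPM in cSCC replicate 18 (nearest 9.59).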

How the results depend on the processing

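Of 179 values of the 6 genes under alternatives other than leaving out 1 sample, 160 kept their direction and their side of the threshold, and of 224 that left out 1 sample, 195 did. Here fits were judged by the adjusted p and permutation tests by the unadjusted p. Ahrr in AK vs. NS thus counted as past the threshold by its permutation test, and its 9 fits without 1 sample, none of which passed, counted as changed. No paired analysis was possible because the labels give no replicate number in more than 1 group and do not give the mouse of a tissue. The cause of a change was not tested unless the alternative itself shows it, as with fewer samples.

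Numbers of called genes moved most. For AK vs. NS (542 with edgeR) they were 1059 with DESeq2, 1043 with voom, 9 with all 20 samples in 1 fit and 1798 with an unadjusted p, and 164 (without NS replicate 4) to 920 (without NS replicate 8) when 1 sample was left out. For cSCC vs. NS (2340) they were 1526 with at least 10 counts in every sample, 1308 with voom, 4052 unadjusted and 1558 without replicates 20 and 21, and 1695 to 3181 without 1 sample. For cSCC vs. AK (2935) they were 1731, 1270, 4504 and 1584 under the same settings, and 1787 (without cSCC replicate 21) to 3994 (without cSCC replicate 18) without 1 sample. In the wider lists, AK vs. NS (1 called) gave 6 with DESeq2, 5 with voom, 0 with all 20 samples in 1 fit and 0 (without NS replicate 2) to 5 (without NS replicate 8) without 1 sample, and cSCC vs. AK (10 called) gave 6 with voom and 7 to 12 without 1 sample. Library size alone lowered the median log2 fold change of all genes by a shift of -0.10 (AK vs. NS), -0.31 (cSCC vs. NS) and -0.27 (cSCC vs. AK) and changed the split of higher and lower calls to 176 and 481, 625 and 1332, and 1021 and 1356, from 264 and 278, 1414 and 926, and 1931 and 1004. Upper quartile factors gave 190 and 391 for AK vs. NS. For cSCC vs. AK the median also moved by -0.19 without the filter, -0.14 with all 20 samples in 1 fit and 0.12 with at least 10 counts.

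For AK vs. NS, Ahrr was -2.0 with DESeq2 (adjusted p = 0.062), -1.93 without the filter and -1.93 with all 20 samples, past no threshold, and -2.08 to -1.71 without 1 sample where the filter kept it. Aldh3a1 passed with DESeq2 (-1.53), and Tiparp, 0.39 to 0.61 without 1 sample, passed in 1 of 16 such fits (lowest adjusted p = 0.0198). For cSCC vs. NS, Ahr was -0.92 without replicates 20 and 21 and -2.11 to -1.16 without 1 sample, Tiparp was 0.93 with library size alone and 0.90 to 1.48 without 1 sample, and Aldh3a1 was -2.3 with voom, -2.68 without replicates 20 and 21 and -3.31 to -2.45 without 1 sample. Uncalled Cyp1b1 changed sign with voom (0.29) and in permutation with a pseudocount of 1 (0.16) or 0.1 (0.25), and ranged from -0.59 to 0.32 without 1 sample. Cyp1a1 ranged from -4.73 to 0.22 without 1 sample. For cSCC vs. AK, Cyp1a1 changed sign with voom (-2.26), without replicates 20 and 21 (-7.25, from 0 cSCC counts and so no measure of size) and in permutation (-0.91, and -2.41 with a pseudocount of 0.1), and ranged from -4.04 to 0.89 without 1 sample. Ahrr, with no call, changed sign without replicates 20 and 21 (-1.92) and in permutation with a pseudocount of 0.1 (-0.06). Tiparp passed with voom (0.9) and without replicates 20 and 21 (1.25), and ranged from 0.47 to 0.98 without 1 sample. Depth set a floor of 3 counts, or 0.225 to 3.78 CPM by library, under which a level could not be detected.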
